A study of Rattus norvegicus with 19 samples.

Results

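A set of 318 transcripts, out of the 29107 in the deposited table, was present in sorted mast cells of every tissue sampled and was lower in hippocampus on postnatal day 7 (PN7) than on postnatal day 2 (PN2). Membership was decided on CPM, here the estimated count of a transcript divided by its library's total and multiplied by 1000000. The lowest of the PN2 hippocampus libraries had to be at least 1.5 times the highest of the PN7 hippocampus libraries. The PN2 hippocampus mean had to reach 20 CPM and the PN7 hippocampus mean to stay under 500 CPM. The highest mean of the 4 PN2 tissues also had to be below 5 times the lowest. The last 3 conditions alone were met by 5812 transcripts, of which 318 (5.47%) met the age condition and 5494 did not. These 5494 are called the other broadly expressed transcripts below.

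The libraries came from wild-type rat pups, and each pool held cells of 6 animals. After perfusion, cells were sorted by flow cytometry as CD45-high, CD11b-negative and FcεRI-positive, and their RNA was amplified with a low-input kit and sequenced in bulk. The groups were hippocampus at PN7 (3 libraries) and at PN2 (4), hypothalamus at PN7 (1) and at PN2 (2), and skin (5) and bone marrow (4) at PN2. Neither strain nor sex is given in the sources used here, and the animals within a pool cannot be separated.

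Mast cells arise from blood-forming progenitors, seed tissues as immature cells and mature where they settle. They carry the high-affinity IgE receptor FcεRI and the receptor KIT, and store histamine and proteases in granules. In the brain they sit along vessels and meninges, and in young rats they are found around the hippocampus. The design sets both brain regions beside bone marrow, where such progenitors form, and beside skin, a tissue outside the brain, in the first week after birth.

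The rows of the table carry Ensembl transcript identifiers without gene names. Of the 47357 genes in the gene table used here, 0 carry an Ensembl identifier, so 0 members could be given a symbol, a function or a sequence. For the same reason no marker gene could be read, and the labelled cell type was not checked. The members are described below by their levels.

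Total estimated counts ran from 10329777 to 12870442 in hippocampus at PN7, against 19935250 to 22967152 at PN2. They were 9792422 in the hypothalamus library of PN7, against 5495252 and 5607810 at PN2, while skin libraries held 11704985 to 26394623 and bone marrow libraries 16196856 to 22563833. The 2 hypothalamus libraries of PN2 differed in complexity: 1 transcript took 6.90% of the counts in replicate 1 and 16.6% in replicate 2. Counts above 0 were found for 311 of the 318 members in all 19 libraries. All 318 passed the filter on low counts. Among them, 56 members formed 25 sets with identical values in every library, so the set holds 287 distinct profiles.

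Together the members took a small share of the reads in every library, and that share was lowest in the hippocampus of PN7. Their summed level was 9542, 8361 and 9098 CPM in the hippocampus libraries of PN7, against 24842, 24091, 24375 and 25293 CPM at PN2. The rule chose the members for this gap, so it is given as a description with no test. In hypothalamus the sum was 14464 CPM in the PN7 library, against 21032 and 16616 CPM at PN2. The hypothalamus library of PN7 thus lay below both of its PN2 libraries and above all hippocampus libraries of PN7. Skin libraries held 16995, 18220, 17747, 21509 and 22082 CPM, all below the lowest hippocampus library of PN2. Bone marrow libraries held 32718, 32157, 32086 and 41136 CPM, all above the highest of any other group. In bulk samples, fewer cells of a type and less RNA per cell cannot be told apart, and this holds for each level given here.

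**Figure D1:**
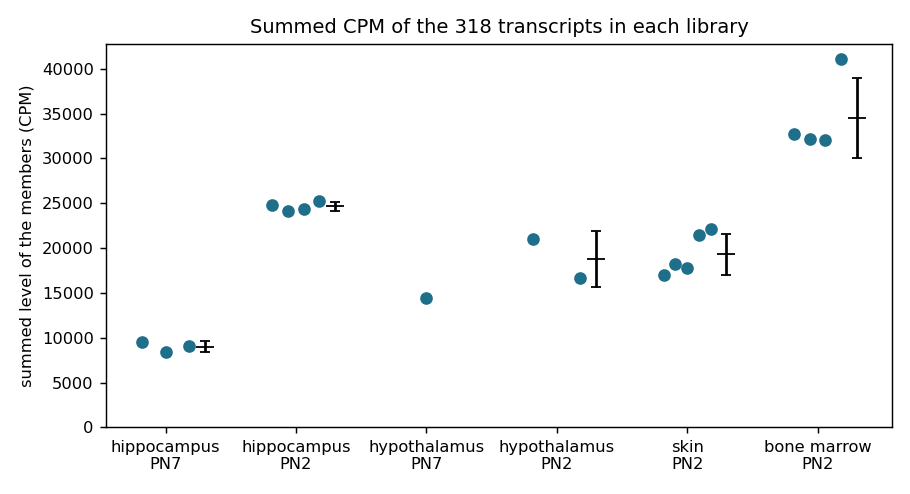
Summed CPM of the 318 members in each library (points), by group, with the mean and SD drawn beside groups of more than 1 library; the vertical axis starts at 0. The hippocampus libraries of PN7 sit between 8361 and 9542 CPM, those of PN2 between 24091 and 25293 CPM, and the bone marrow libraries lie highest.

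In hippocampus the PN7 mean of the median member was 35.8% of its PN2 mean, with quartiles of 26.7% and 43.7%. At PN7 the median member held 16.3 CPM, against 49.1 CPM at PN2. Of the 318 members, 126 kept a gap of at least 2 times between the lowest PN2 and the highest PN7 library, 29 of at least 3 times and 4 of at least 4 times. At the other end, the nearest 2 members inside the limit had ratios of 1.5006 each, and the nearest 2 transcripts outside it 1.4985 and 1.4966. The gap was of like size at low and high levels. In 3 sets of 106 members ordered by level, running from 20.2 to 35.2, from 35.3 to 71.5 and from 72.2 to 696 CPM at PN2, the median PN7 level was 36.8%, 34.4% and 37.5% of the PN2 level. In edgeR's quasi-likelihood test, 296 members were called lower at PN7 (adjusted p below 0.05), where 5.51% of all 20521 transcripts tested were. The rule used this contrast, so nothing is read from that count.

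The rule itself set the gap between the hippocampus groups, so the spread between pools there is a description. The coefficient of variation of the median member was 15.2% among the hippocampus libraries of PN7 and 16.2% among those of PN2. For the other broadly expressed transcripts it was 10.3% and 14.4%. At PN7 in hippocampus the median member held 16.3 CPM and the median of those others 51.2 CPM. The coefficient was 34.7% for the members between the 2 hypothalamus libraries of PN2, 15.1% in skin and 14.1% in bone marrow. For the other broadly expressed transcripts it was 26.4%, 13.0% and 15.5% in these groups.

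ENSRNOT00000020049.4 had the widest gap in hippocampus, with 0 counts in all 3 libraries of PN7, against 29.8, 25.2, 28.15 and 21.4 CPM in those of PN2. With a floor of 3 counts over the PN7 group it was at least 295-fold lower at PN7. The hypothalamus library of PN7 held 14.7 CPM, against 23.9 and 16.6 CPM at PN2. Skin held 0 CPM in replicate 1 and 11.3 to 20.05 CPM in the other libraries, and bone marrow 5.75 to 7.92 CPM.

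ENSRNOT00000087870.1 followed with 2.85, 1.52 and 3.50 CPM at PN7, against 24.0, 21.3, 20.7 and 16.9 CPM at PN2 in hippocampus. Its groups were 4.82 times apart at their nearest libraries. In hypothalamus it held 11.35 CPM at PN7, against 11.1 and 12.8 CPM at PN2, a value between both. Skin held 7.71 to 12.8 CPM, below every hippocampus library of PN2, and bone marrow held 35.5 to 56.5 CPM, above every one of them.

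The most abundant member held 361, 355 and 367 CPM in hippocampus at PN7, against 648, 776, 680 and 680 CPM at PN2. The member at the median level held 23.0, 19.9 and 25.4 CPM at PN7, against 45.4, 50.1, 47.1 and 54.3 CPM at PN2. The member with the lowest level held 9.80, 6.32 and 7.32 CPM at PN7, against 22.1, 15.5, 23.4 and 19.6 CPM at PN2. In all 3 the groups were apart by the rule, by 1.76, 1.79 and 1.59 times.

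Across tissues the members were not equally expressed. Bone marrow held the highest of the 6 group means for 259 members (81.4%), against 35.6% of the other broadly expressed transcripts. The hippocampus of PN2 was highest for 33 members (10.4%, against 7.32% of the others) and skin for 14 (4.40%, against 10.1%). The hypothalamus library of PN7 was highest for 7 (2.20%, against 22.8%) and the hypothalamus of PN2 for 5 (1.57%, against 6.21%). The hippocampus of PN7 was lowest for 276 members (86.8%, against 22.0% of the others) and the hypothalamus library of PN7 for 31 (9.75%, against 15.6%). Relative to its PN2 hippocampus mean, the median member stood at 35.8% in hippocampus at PN7, 58.2% in the hypothalamus library of PN7, 73.0% in hypothalamus at PN2, 69.8% in skin and 144% in bone marrow. For the other broadly expressed transcripts these medians were 100.9%, 105%, 94.9%, 100.8% and 112%. The rule picked members with a high PN2 hippocampus level and bounded the PN2 means within 5-fold, so these tissue levels are a description without tests.

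Single members show both kinds of profile. The second most abundant member, highest in bone marrow, held 172, 167 and 175 CPM in hippocampus at PN7, against 515, 426, 455 and 427 CPM at PN2. It held 274 CPM in the hypothalamus library of PN7, against 391 and 303 CPM at PN2. Skin libraries of this member ran from 234 to 300.0 CPM and bone marrow libraries from 1170 to 1290 CPM. No library of bone marrow overlapped with one of another group. The most abundant member instead had its highest mean in hippocampus at PN2. Its hypothalamus library of PN7 held 93.5 CPM, against 311 and 350 CPM at PN2. In skin it held 449 to 641 CPM, and in bone marrow 126 CPM in replicate 4 and 410 to 440 CPM in the others.

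**Figure D2:**
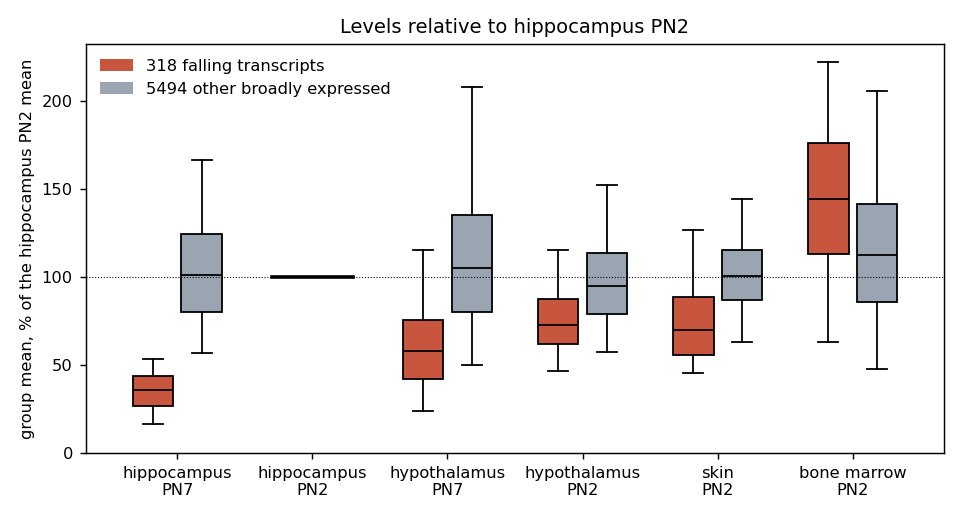
Group mean of each transcript as a percentage of its PN2 hippocampus mean, for the 318 members and the 5494 other broadly expressed transcripts; boxes give the median and quartiles, whiskers the 5th and 95th percentiles, and the bar at 100 marks the hippocampus of PN2. The members' median lies at 35.8% in hippocampus at PN7 and at 144% in bone marrow, while the medians of the other transcripts lie between 94.9% and 112%.

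Members whose libraries did not overlap between groups were counted too. Since the rule chose high PN2 and low PN7 levels in hippocampus, the counts that involve hippocampus are partly set by that choice, and nothing is read from them against their backgrounds. Every hippocampus library of PN7 lay below every bone marrow library for 301 members, where this held for 26.9% of all transcripts tested. Against skin it held for 279 members, where 14.2% of all transcripts showed it. At PN2 every hippocampus library lay below every bone marrow library for 159 members (background 22.0%) and above every bone marrow library for 22 (background 14.9%). Every hippocampus library of PN2 lay above every skin library for 156 members (background 8.35%) and below every skin library for 4 (background 8.46%). Between the tissues outside the brain, every skin library lay below every bone marrow library for 221 members (69.5%, background 21.3%). It lay above for 16 (5.03%, background 14.2%). Among the other broadly expressed transcripts these shares were 27.3% and 15.1%. The age condition did not use these libraries, but the 5-fold bound used their means, so the counts are a description.

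**Figure D3:**
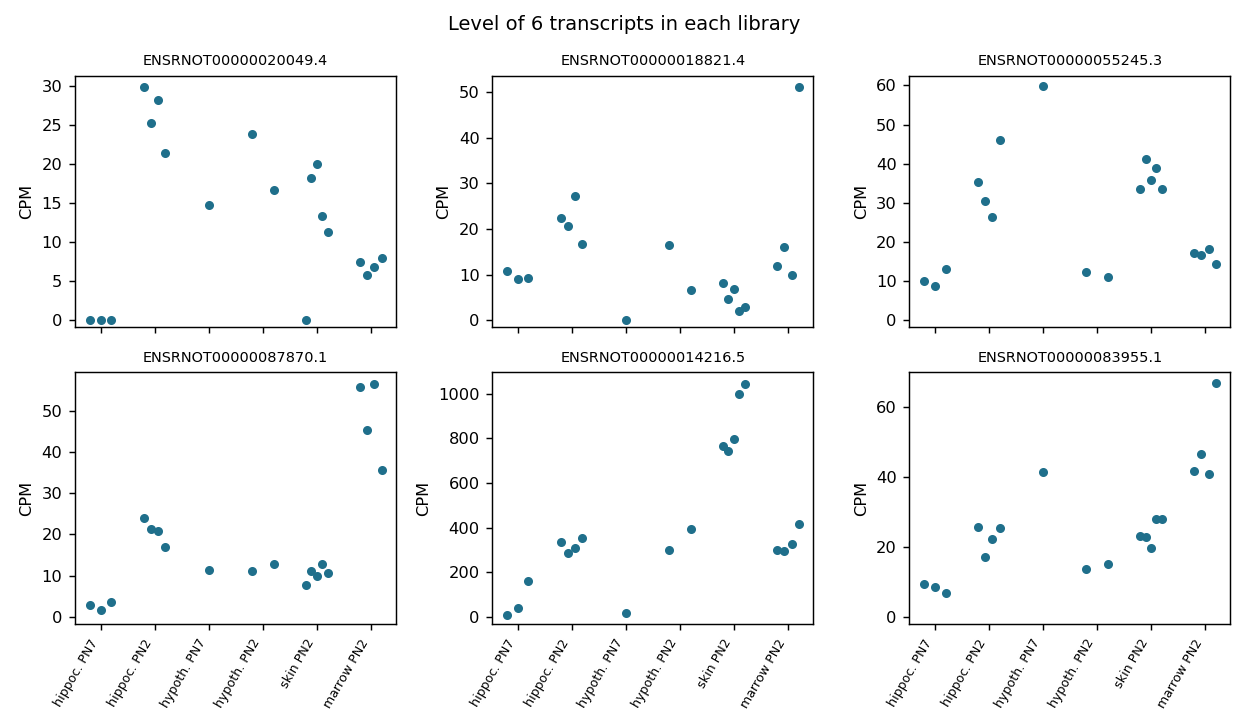
Level in CPM of each of 6 members in every library (points), by group: the 2 with the widest gap in hippocampus (left), and, among the members called in hypothalamus, the 2 with the largest fitted falls (middle) and the 2 with the largest fitted rises (right); each vertical axis has its own range. ENSRNOT00000055245.3 and ENSRNOT00000083955.1 are low in hippocampus at PN7 and reach 59.9 and 41.5 CPM in the hypothalamus library of PN7.

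The hypothalamus gave the 1 change with age that the age condition did not use. Its PN7 group is a single library, so the test takes its spread from the other groups and assumes that this library varies as they do. The PN2 hypothalamus mean entered the rule through the 5-fold bound, which sets no direction. In CPM the PN7 level of the median member was 80.2% of its PN2 mean, against 110% for the median of the other broadly expressed transcripts and 107% over all transcripts tested. The PN7 library lay below both PN2 libraries for 133 members (41.8%), where 14.9% of all transcripts and 19.5% of the other broadly expressed ones did. It lay above both for 36 members (11.3%), where 37.8% of all transcripts and 40.3% of the other broadly expressed ones did. In the fit, which scales libraries by TMM, the median log2 fold change of the members was -0.51, against -0.05 for the other broadly expressed transcripts and 0.00 over all. Without PN2 replicate 1 the median log2 ratio in CPM was -0.08 for the members and 0.33 for the other broadly expressed transcripts, and without replicate 2 it was -0.45 and 0.02. Fitted values were below 0 for 273 of 318 members (85.8%), and for 54.4% of the other broadly expressed transcripts.

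Few of these changes passed the test one by one. In edgeR's quasi-likelihood test with Benjamini-Hochberg adjustment over all 20521 transcripts, 18 members (5.66%) fell in hypothalamus at PN7, against 1.21% of all transcripts. Among the other broadly expressed transcripts 1.24% fell. The 18 log2 fold changes had a median of -1.5. In the opposite direction 2 members (0.629%) rose, against 1.56% of all transcripts and 0.983% of the other broadly expressed ones. At an unadjusted p below 0.05, 93 members were lower and 5 higher, where 7.63% and 9.06% of all transcripts were. The counts depended on the PN2 libraries: without hypothalamus replicate 1, 44 members fell and 20 rose, with backgrounds of 4.49% and 9.37%, and without replicate 2, 30 fell and 2 rose, with backgrounds of 1.66% and 1.64%. With only the 3 hypothalamus libraries in the edgeR fit, 0 members passed, and 7 were lower and 1 higher at an unadjusted p below 0.05, beside 153 lower and 241 higher among all 15249 transcripts of that fit. DESeq2 called 46 members lower and 3 higher, with backgrounds of 3.48% and 3.73%. The calls of limma voom were 3 lower and 0 higher, with backgrounds of 0.166% and 0.551%.

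**Figure D4:**
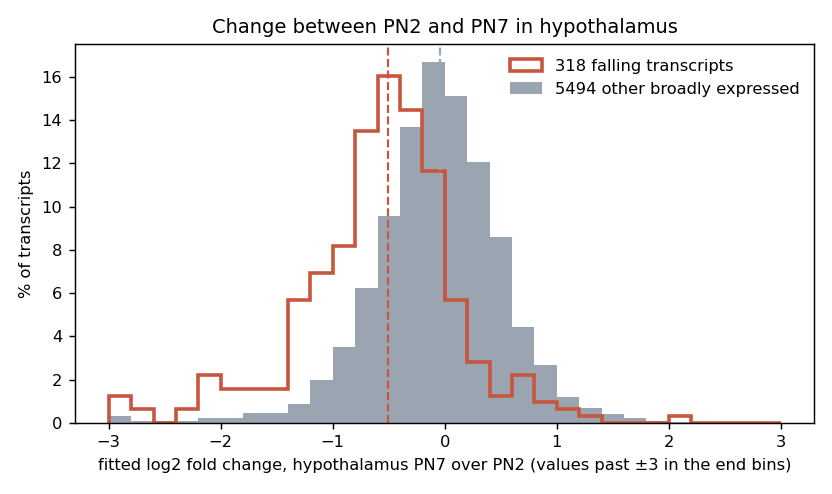
Share of transcripts by fitted log2 fold change between the hypothalamus library of PN7 and the 2 of PN2, for the 318 members (outline) and the 5494 other broadly expressed transcripts (filled); dashed lines mark the medians. The members' median lies at -0.51 and that of the other transcripts at -0.05.

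ENSRNOT00000018821.4 had 0 counts in the hypothalamus library of PN7, against 16.5 and 6.56 CPM at PN2. With a floor of 3 counts it was at least 37.6-fold lower at PN7 (adjusted p = 0.00994, edgeR). In hippocampus it held 10.8, 8.99 and 9.20 CPM at PN7, against 22.45, 20.7, 27.3 and 16.6 CPM at PN2. Bone marrow replicate 4 held 51.1 CPM, and the other bone marrow libraries 9.90 to 16.0 CPM.

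ENSRNOT00000014216.5 held 16.1 CPM in the hypothalamus library of PN7, against 297.5 and 395 CPM at PN2, a log2 fold change of -4.67 ± 1.17 (SE), with an adjusted p of 0.0418 in edgeR's test. In hippocampus it held 7.01, 39.2 and 160.2 CPM at PN7, against 337, 284, 306 and 352 CPM at PN2. The libraries of PN7 thus differed widely among themselves, though each was below all of PN2. Skin held more than any other group, from 745 to 1044 CPM. The call in hypothalamus was lost without PN2 replicate 2 (adjusted p = 0.0716, edgeR).

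ENSRNOT00000055245.3 ran the other way in hypothalamus, with 59.9 CPM at PN7, against 12.4 and 11.1 CPM at PN2. The log2 fold change was 2.15 ± 0.29 (SE), with an adjusted p of 0.00107 in edgeR's test. In hippocampus it held 10.02, 8.76 and 13.0 CPM at PN7, against 35.4, 30.4, 26.4 and 46.0 CPM at PN2. ENSRNOT00000083955.1 likewise rose in hypothalamus, with 41.5 CPM at PN7, against 13.65 and 15.2 CPM at PN2, a log2 fold change of 1.30 ± 0.29 (SE), with an adjusted p of 0.0226 in the same edgeR fit. In hippocampus it held 9.48, 8.61 and 6.68 CPM at PN7, against 25.6, 17.1, 22.3 and 25.3 CPM at PN2. For both transcripts every hippocampus library of PN7 lay below all of PN2, and the hypothalamus library of PN7 above both of PN2. The difference between the regions was not tested, since the rule used the hippocampus contrast.

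Median changes in hypothalamus were also taken by the group in which a member was highest. The 259 members highest in bone marrow had a median fitted log2 fold change of -0.49 in hypothalamus, with 10 called lower and 1 higher. The 33 highest in hippocampus at PN2 had a median of -0.67, with 4 lower. The 14 highest in skin had a median of -1.70, with 4 lower, and stood at 30.4% of their PN2 hippocampus mean in the hypothalamus library of PN7, against 69.2% in hypothalamus at PN2. The 7 highest in the hypothalamus library of PN7 had a median of 0.66, a sign fixed in part by how they were picked. Over all transcripts tested, 1.21% were called lower and 1.56% higher. These subsets were formed after the values were seen and carry no test, and counts this small are given as values only. Among the 29 members at least 3 times apart in hippocampus, 26 were fitted below 0 in hypothalamus, with a median of -0.72. Fitted values below 0 were found for 85.8% of all 318 members and 43.3% of all transcripts tested. Of the 29, 8 share identical values with another member, so they are not 29 distinct profiles. Of these 29, 23 had their highest mean in bone marrow and 6 in hippocampus at PN2.

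The hypothalamus library of PN7 also differed from those of PN2 in transcripts that set bone marrow apart. A class chosen in earlier work on these data, with a bone marrow mean of 100 CPM or more and 50-fold or more above skin, summed to 62603 CPM in the PN7 library, against 22281 and 16576 CPM at PN2. In hippocampus they summed to 5569 to 8702 CPM at PN7, against 4565 to 6982 CPM at PN2, and in bone marrow to 123810 to 205520 CPM. The 5-fold bound of the rule keeps every member out of this class. The hypothalamus library of PN7 had a higher sum of this class and a lower sum of the members than either PN2 library. The part of this difference in the members' levels was not tested.

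To set the members beside transcripts that changed less or rose, all 5812 broadly expressed transcripts were put in 7 bins by the log2 ratio of PN7 to PN2 in hippocampus, with 1 CPM added. In the lowest bin, 159 transcripts of which 136 are members, the median log2 ratio of PN7 to PN2 in hypothalamus was -0.52. It was -0.30 in the next bin, with 243 transcripts and 144 members, and -0.08 in the one after, with 707 transcripts and 38 members. In the highest bin, with 82 transcripts and no member, it was 0.58. The median log2 ratio of bone marrow to skin at PN2 ran the opposite way, with 1.29, 0.68 and 0.44 in the 3 bins with members and -0.24 in the highest. Over the 318 members alone, the hippocampal and hypothalamic ratios correlated at Pearson's r = 0.28 and Spearman's rho = 0.29. Over all 5812 transcripts these ratios gave r = 0.37 and rho = 0.35. The hippocampal ratio and that of bone marrow to skin correlated at r = -0.22 and rho = -0.33 over the members. Over all 5812 they gave r = -0.32 and rho = -0.32. Between the hypothalamic ratio and that of bone marrow to skin there was little correlation over the members, at r = 0.12 and rho = -0.01. Over all 5812 transcripts that pair gave r = 0.004 and rho = -0.03. These correlations are across transcripts, which share libraries and scaling and are not replicates.

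**Figure D5:**
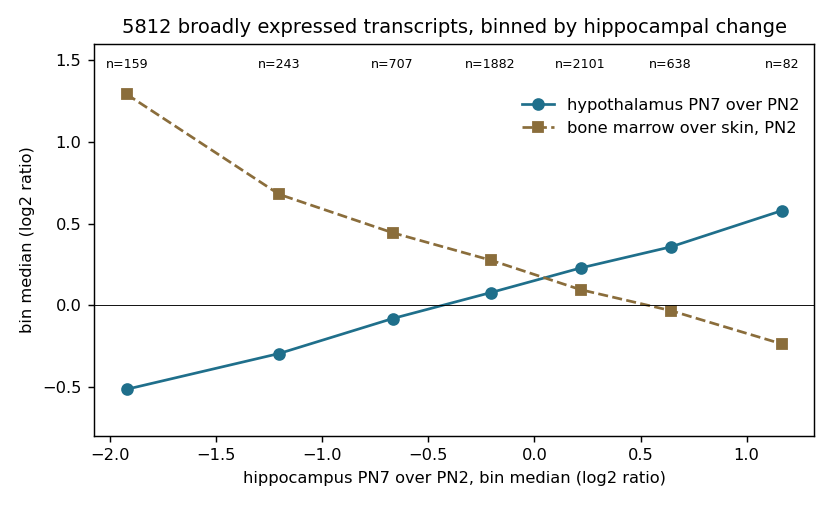
Median log2 ratios of 5812 broadly expressed transcripts in 7 bins of their change in hippocampus (horizontal axis, bin median of the log2 ratio of PN7 to PN2); circles give the change in hypothalamus and squares the ratio of bone marrow to skin at PN2. The first 3 bins hold all 318 members; from the first bin to the last the hypothalamus median runs from -0.52 to 0.58 and the bone marrow to skin median from 1.29 to -0.24.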

How the data were processed

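The authors deposited 1 table of estimated counts per transcript without scaling between libraries. The tool was kallisto and the rat build Rnor_6.0, per the submitters' processing notes; its version is not given in the sources used here. This tool divides reads among similar transcripts, and a shift between isoforms cannot be told from a change of a gene's total. SMART-Seq v4 cDNA went into Nextera XT libraries, per the labels' protocols, and neither adds molecular identifiers, so floors cover counting error only. The labels call the replicates independent, each a pool, and p-values measure the spread between pools. For the lone hypothalamus library of PN7 that spread is taken from the other groups.

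Levels are CPM on column totals. Estimated counts were rounded and tested with edgeR 4.0.16 (R 4.3.3): filterByExpr over 6 groups left 20521 transcripts, TMM scaling, 1 robust quasi-likelihood fit of all 19 libraries, glmQLFTest, Benjamini-Hochberg adjustment, and calls below 0.05. The SE is the log2 fold change divided by the square root of F. The script was tested on simulated data. Alternatives were RLE factors, DESeq2 1.42.0, limma 3.58.1 voom, other filters, other limits of the rule, a replicate block, left-out libraries and only the groups compared. Added after seeing the data were thinning to the smallest total, merging identical transcripts and leaving out the libraries numbered 4 and 5. Members, lists and tests were chosen with earlier results of these data known. Identifiers named are the 2 members with the widest gap in hippocampus, and the 2 largest falls and 2 largest rises among members called in hypothalamus. Members at the highest, median and lowest level are given without one. Gene lists written for named genes could not be matched and gave no result. Figures were drawn with matplotlib 3.10.9.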

Additional observations from a re-analysis of the deposited data

Results flagged for a closer look

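In bone marrow, replicate 4 stood far from the others in the summed level of the members, at 41136 CPM against 32086 to 32718 CPM. With each set of identical transcripts counted once, the sums were 35338 CPM and 30024 to 30697 CPM. The same library held 51.06 CPM of ENSRNOT00000018821.4, against at most 16.0 CPM in the other bone marrow libraries. Of 21 groups of values examined for such a library these 2 stood out, and chance gives about 1 in 20. Bone marrow replicate 4 also differed in make-up. Its top transcript took 1.97% of the counts, against 4.6% to 4.91% in the other bone marrow libraries. Its TMM factor was 1.222, against 1.027 to 1.08. In skin, replicates 4 and 5 likewise held more of the members, at 21509 and 22082 CPM against 16995 to 18220 CPM.

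ENSRNOT00000055245.3 and ENSRNOT00000083955.1 reached 59.91 and 41.46 CPM in the hypothalamus library of PN7, above both PN2 libraries, while every hippocampus library of PN7 was below every one of PN2. The PN7 library lay above both PN2 libraries in hypothalamus for 36 members (11.3%), a smaller share than the 37.8% of all transcripts tested, and the rule fixed the direction in hippocampus. The difference between the regions was not tested.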

How the results depend on the processing

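The 318 members became 569 with a lower fold limit, 126 with a limit of 2, and 154 with a mean of at least 50 CPM. They numbered 371 on TMM-scaled and 344 on RLE-scaled sizes, sharing 313 and 311 with the 318, and 335 to 401 without 1 hippocampus library. Bone marrow was highest for 259 of the 318 members, and for 219 on TMM-scaled and 225 on RLE-scaled sizes. Without the libraries numbered 4 and 5 it was highest for 231 of the 318. With each set of identical transcripts counted once it was highest for 234 of 287. For hypothalamus PN7 against PN2, the 320 higher and 248 lower transcripts became 766 and 714 with DESeq2, 113 and 34 with limma voom, and 0 and 0 with only the groups compared (241 and 153 at an unadjusted p below 0.05). Members called were then 46 lower with DESeq2, 3 lower and 0 higher with limma voom, and 0 in the fit of the 3 hypothalamus libraries. With the libraries numbered 4 and 5 left out, 465 of 19414 transcripts (2.4%) and 37 members were lower. In that fit 477 transcripts (2.46%) and 2 members were higher. Without 1 PN2 library, 335 to 1912 transcripts were higher and 341 to 917 lower, and 30 to 44 members were lower and 2 to 20 higher. The members' median log2 ratio in hypothalamus, -0.31 in CPM, ran from -0.49 to -0.08 over its alternatives. It was -0.08 without PN2 replicate 1, where the other broadly expressed transcripts stood at 0.33. Scaling by TMM gave medians of -0.49 and -0.05 for the same lists. For hippocampus PN7 against PN2, the 703 higher and 1131 lower transcripts became 1376 and 1723 with DESeq2 and 2071 and 2248 with limma voom; 1381 were higher with only the groups compared, and without 1 library 372 to 548 were higher and 701 to 991 lower, the fewest without PN7 replicate 2. With the replicate block, 191 transcripts were higher and 196 lower (0.955%) in hypothalamus, with 2 members higher and 26 lower. Same-numbered hippocampus libraries of PN7 and PN2, compared for replicates 1 to 3, deviated with correlations of 0.02, -0.01 and -0.07. These values show no pairing by number, but so few libraries cannot exclude pairing or a shared batch, and other tissues were not compared. The 4 named calls in hypothalamus kept their direction throughout. All 4 were lost in the fit of the 3 hypothalamus libraries and with limma voom (adjusted p from 0.0982 to 0.24). That on ENSRNOT00000014216.5 was also lost without a filter (adjusted p = 0.0521), with the block (0.0821), without PN2 replicate 2 and without the libraries numbered 4 and 5 (0.0727, all edgeR). The lone hypothalamus library of PN7 could not be left out.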
